A study of Homo sapiens with 3 samples.

Results

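The tricarboxylic acid (TCA) cycle and malate enzymes considered here are CS, IDH1, IDH2, IDH3A, OGDH, SUCLG1, FH, MDH1 and MDH2, and their mRNA was measured in a pair of U87 glioblastoma clones that differ in the IGF1 receptor they carry. Probes were taken when their RefSeq transcript belonged to one of these genes, which gave 9 genes with 11 probes among 25006 named genes and 58201 probes. CS and MDH1 had a pair of probes each, and every other gene had 1 probe with 1 spot per array. U87WT 5 was transfected with GFP-IGF1R, the wild-type receptor fused to a green fluorescent protein, and U87Mut 5 with GFP-IGF1R1025x-1100x-1120x, in which lysines were exchanged so that the receptor does not reach the nucleus. Both are single stable clones, selected with G418, of U-87MG (U87), an established human glioblastoma line that also keeps its own IGF1R. Cy5 marked the RNA of U87WT and Cy3 that of U87Mut, and both were hybridized to the same Agilent array, with 1 array for each of FBS-free medium, IGF1 at 50 nM, and IGF1 at 50 nM with OSI906, a kinase inhibitor of IGF1R and the insulin receptor. The treatments lasted 24 h, and OSI906 was given at 0.5 μM by the sample's name and 500 μM by the label of its medium. The comparisons ask how the clones differ in each medium, and how each of them differs between media. Each condition has a single array and no array with exchanged dyes, so a difference between the clones and the dye bias of a probe cannot be told apart, and neither can the receptor's location and other differences between a pair of single clones.

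The TCA cycle takes up acetyl-CoA in the mitochondrion, oxidizes it to carbon dioxide, and passes the electrons to the respiratory chain. Its intermediates also leave the mitochondrion, citrate for lipid synthesis and malate for the exchange of reducing power with the cytosol, and cytosolic forms of the isocitrate and malate dehydrogenases act on them there. IDH1 and IDH2 are well known in glioma because a part of these tumors carries mutations in them. In whole cultures fewer cells that express a gene and less RNA of it per cell cannot be told apart.

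Each of the 11 probes was marked well above background for both dyes on every array. The values below are log2 channel levels, which are the normalized brightness of one probe in one clone, and log2 ratios of U87WT over U87Mut. Levels of different probes are not compared with each other, since probes differ in brightness per molecule. A ratio or a difference past 0.5 in size on the log2 scale was called, with no test, and the share of all probes past this limit is given as the background for each comparison. As a yardstick, spots of one probe within an array varied with an SD of 0.0477 to 0.0526 in log2 ratio for probes with a mean log2 level of 8 or more, and of 0.0711 to 0.0801 below it. The log2 ratio of 27677 probes well above background varied with an SD of 0.143 between the FBS-free and the OSI906 array, which holds noise and response together. Neither yardstick holds the spread between cultures.

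IGF1R, the transfected gene, had 1 named probe, with log2 levels of 8.81, 8.95 and 8.52 in U87WT and of 8.74, 8.72 and 8.43 in U87Mut in FBS-free medium, with IGF1 and with IGF1 plus OSI906. Its clone log2 ratios of 0.07, 0.23 and 0.09 were within the limit, and the place of this probe relative to the transfected coding sequence is not given in the sources used here. Among markers of the line, 5 of 5 mesenchymal glioma markers were well above background on all arrays, as were 3 of 6 glial markers, while the glial genes GFAP, S100B and ALDH1L1 were not on any. Of 9 listed markers of other cell types 8 had a named probe, and 6 were well above background. The immune gene PTPRC lay between 6.09 and 6.35 in log2 level, with the lower quartile of all probes at 5.90 to 5.91, and the neuronal gene SNAP25 lay between 8.40 and 10.34. Of the glial genes well above background, AQP4 and OLIG2 were also low, at 6.12 to 6.34 and 6.05 to 6.14, and SLC1A3 lay at 9.05 to 11.87. SNAP25 was higher in U87WT on every array, by 1.06, 1.03 and 0.91 in log2 ratio. The other neuronal marker, RBFOX3, had clone log2 ratios of -0.31, -0.55 and 0.38. Other listed markers past 0.5 on an array were SLC1A3 at 1.78, 1.95 and 1.25, VIM at 1.15, 0.29 and 0.77, and FN1 at 0.68, -0.14 and 0.74. EPCAM stood at 0.36, 0.53 and 0.20, and TNC was lower in U87WT, at -0.91, -0.77 and -1.03. The part of such differences between the clones in the values below was not tested.

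The isocitrate dehydrogenases held every called difference between the clones and between media among the 9 genes. IDH1, the NADP-dependent enzyme of cytosol and peroxisomes, and IDH3A, the catalytic subunit of the NAD-dependent enzyme of the cycle, were lower in U87WT than in U87Mut in FBS-free medium and with OSI906, and came near to U87Mut with IGF1. IDH2, the NADP-dependent mitochondrial enzyme, was higher in U87WT on all 3 arrays, with exceptions under other processing given below, and highest in both clones with OSI906. The other 6 genes stayed within 0.5 in every one of these comparisons.

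IDH1 and IDH3A were highest with IGF1 and lowest with OSI906 in U87WT, and in this order also in U87Mut. The order in U87Mut depended on the processing. Without normalization between arrays its IGF1 difference was -0.15 for IDH1 and -0.03 for IDH3A. Before normalization the Cy3 signal of both genes was highest in FBS-free medium. The step from FBS-free medium to OSI906 was small for IDH3A in U87WT, at -0.08 in log2 level. Because of the U87WT pattern, the 250 bases before their annotated starts are shown, read 5′ to 3′ on the strand of each gene, from RefSeq promoters of GRCh38.p14. Capitals mark GGGCGG or its complement CCGCCC, the GC box. IDH1 spans chr2:208236227-208255071 and IDH3A spans chr15:78149362-78171945, so that the stretches lie at chr2:208255072-208255321 on the minus strand and at chr15:78149112-78149361 on the plus strand.
IDH1: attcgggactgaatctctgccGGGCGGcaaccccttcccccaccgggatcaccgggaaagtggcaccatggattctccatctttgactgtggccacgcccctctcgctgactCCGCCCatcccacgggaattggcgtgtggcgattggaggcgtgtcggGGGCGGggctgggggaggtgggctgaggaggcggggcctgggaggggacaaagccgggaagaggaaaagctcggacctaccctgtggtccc
IDH3A: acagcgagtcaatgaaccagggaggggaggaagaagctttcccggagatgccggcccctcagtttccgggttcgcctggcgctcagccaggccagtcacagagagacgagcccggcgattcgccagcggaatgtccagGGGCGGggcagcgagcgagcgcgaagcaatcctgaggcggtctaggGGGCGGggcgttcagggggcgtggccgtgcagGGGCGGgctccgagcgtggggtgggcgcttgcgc
Each stretch held 3 GC boxes, a motif found on either strand in 42.6% of 35116 promoters of the same length. CCAAT, searched likewise, had 2 matches for IDH1 and 0 for IDH3A, against 32.0% of promoters. A further IDH1 entry, not shown, held 1 GC box and 0 CCAAT. These motifs were not particular to IDH1 and IDH3A, since CS held 5 GC boxes and 2 CCAAT, and FH held 2 of each. The entries of IDH2, MDH1, MDH2 and SUCLG1 held 0 GC boxes. CACGTG, the E-box, and TGTTTAC, a FOXO site, were in 6.34% and 2.98% of promoters and had no match in any of the 10 entries found for 8 of the 9 genes. A match is a description of these letters, and no other readout here bears on these stretches.

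IDH1 in U87WT had log2 levels of 12.15 in FBS-free medium, 12.81 with IGF1 and 11.88 with IGF1 plus OSI906. In U87Mut the same probe gave 12.65, 12.74 and 12.62. The 3 values of U87Mut lay close together, whereas those of U87WT were low, high and low, and only the IGF1 value of U87WT was as high as those of U87Mut. The clone log2 ratios were therefore -0.50, 0.07 and -0.74, the first of them just inside the limit of 0.5 and the last past it. Before normalization the Cy5 signal was 5172, 8834 and 3808 and the Cy3 signal 7103, 5019 and 5435, so the red channel alone had the same order of media.

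IDH3A in U87WT had log2 levels of 7.81, 8.51 and 7.74 in the same order of media. In U87Mut the levels were 8.56, 8.73 and 8.41. Here too the IGF1 value of U87WT stood out from the other U87WT values, but it stayed below U87Mut on its own array, except with median centering within arrays, where the ratio turned to 0.11. The clone log2 ratios were -0.75, -0.22 and -0.67, which is 1.68-fold and 1.59-fold lower in U87WT in FBS-free medium and with OSI906. This probe was dim, with raw Cy5 signals of 202, 377 and 177 and raw Cy3 signals of 385, 315 and 290 over local backgrounds of 21 to 24.

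IDH2, at chr15:90083045-90102468, had log2 levels of 9.38, 9.0 and 9.98 in U87WT and of 9.17, 8.67 and 9.54 in U87Mut. Both clones were lowest with IGF1 and highest with OSI906, and U87WT was above U87Mut in each medium. The clone log2 ratios were 0.20, 0.34 and 0.44, none past the limit. On the IGF1 array this ratio turned to -0.06 when the background model was fitted on all spots and was -0.10 in the deposited table.

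**Figure D1:**
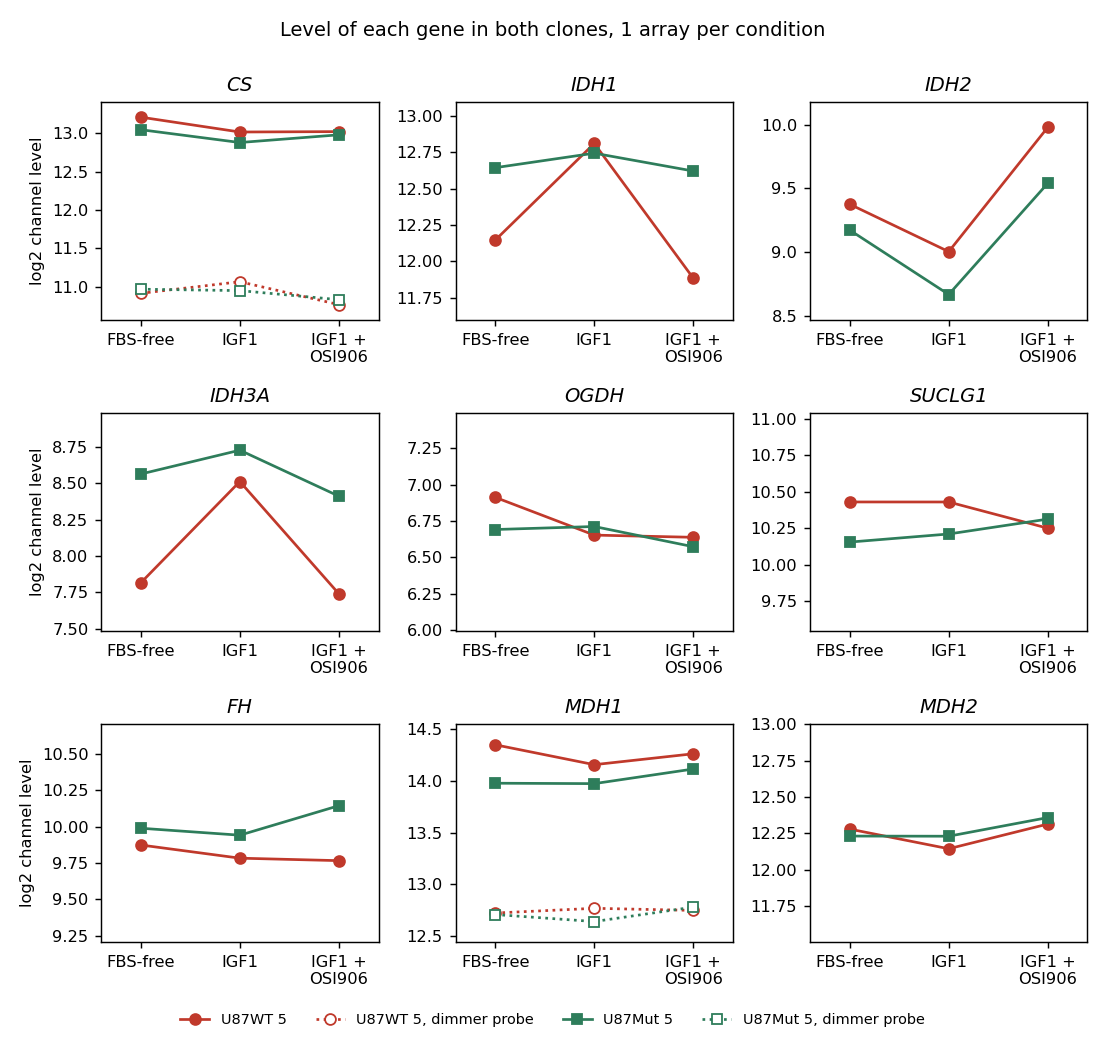
Log2 channel levels (vertical axis, normalized brightness of one probe, scale differing between panels) of the 9 genes in FBS-free medium, with IGF1 and with IGF1 plus OSI906 (horizontal axis), for U87WT 5 (red circles) and U87Mut 5 (green squares), 1 array per condition and no error bars; open symbols are the dimmer probes of CS and MDH1. IDH1 and IDH3A of U87WT peaked with IGF1 at 12.81 and 8.51, IDH2 was highest with OSI906 in both clones, and the other 6 genes changed little.

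Citrate synthase, CS (chr12:56271699-56300330), joins acetyl-CoA to oxaloacetate and so opens the cycle. Its brighter probe gave log2 levels of 13.21, 13.02 and 13.02 in U87WT and 13.05, 12.88 and 12.98 in U87Mut. U87WT was slightly above U87Mut in each medium, with clone log2 ratios of 0.16, 0.14 and 0.04. The dimmer probe gave -0.05, 0.12 and -0.06, so the direction of so small a difference rested on the probe in FBS-free medium and with OSI906.

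After the isocitrate dehydrogenases, OGDH (chr7:44606627-44709066), the first component of the 2-oxoglutarate dehydrogenase complex, had log2 levels of 6.91, 6.65 and 6.64 in U87WT and of 6.69, 6.71 and 6.57 in U87Mut. Its raw signals of 62 to 89 were the nearest to the local background among these probes, and its clone log2 ratios were 0.22, -0.06 and 0.06. SUCLG1 (chr2:84423528-84459280), the subunit shared by both forms of succinyl-CoA ligase, had levels of 10.43, 10.43 and 10.25 in U87WT and 10.15, 10.21 and 10.31 in U87Mut. U87WT was above U87Mut on the first 2 arrays and just below on the OSI906 array, with clone log2 ratios of 0.28, 0.22 and -0.06.

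FH (chr1:241497603-241519755), which hydrates fumarate to malate, had log2 levels of 9.87, 9.78 and 9.77 in U87WT and of 9.99, 9.94 and 10.14 in U87Mut. All 3 values of U87WT lay below all 3 of U87Mut. The clone log2 ratios were -0.12, -0.16 and -0.38. On the IGF1 array the ratio depended on the processing, and it was -0.49 with the background fitted on all spots and -0.57 in the deposited table, and turned to 0.25 with median centering within arrays.

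The malate dehydrogenases interconvert malate and oxaloacetate, MDH1 in the cytosol and MDH2 in the mitochondrion. The brighter probe of MDH1 (chr2:63588963-63607197) had log2 levels of 14.35, 14.16 and 14.26 in U87WT and of 13.98, 13.98 and 14.12 in U87Mut. By this probe all U87WT values exceeded all U87Mut values, with clone log2 ratios of 0.37, 0.18 and 0.15. The other probe, listed under another RefSeq transcript of the gene, gave ratios of 0.01, 0.13 and -0.03, so the pair differed by 0.36 in FBS-free medium. Which transcripts each probe reads was not tested. MDH2 (chr7:76048106-76067508) had levels of 12.28, 12.14 and 12.31 in U87WT and of 12.23, 12.23 and 12.36 in U87Mut, and its clone log2 ratios of 0.05, -0.09 and -0.04 stayed closest to 0 of the 9 genes.

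Past 0.5 in clone log2 ratio were 1 of the 9 genes in FBS-free medium (IDH3A), 0 with IGF1 and 2 with OSI906 (IDH1 and IDH3A), all of them lower in U87WT. The background in these comparisons was 4.61%, 4.38% and 4.24% of all probes, and 9.46%, 8.89% and 8.79% of the probes well above background. The median log2 ratio of the 9 genes was 0.16, 0.07 and -0.04, against -0.01, 0.00 and 0.00 for the probes well above background. With so few genes, these counts do not set the 9 genes apart as a group.

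Over the 3 arrays, limma called IDH2, and no other of the 9 genes, at 5% after Benjamini-Hochberg adjustment. Its mean log2 ratio was 0.33 ± 0.055 (SE, n = 3 arrays, 95% interval 0.18 to 0.47, limma adjusted p = 0.033), and it was higher in U87WT on 3 of 3 arrays. The sign on single arrays was not the same in every setting, with -0.06 and -0.10 on the IGF1 array as given above and -0.08 in FBS-free medium with median centering within arrays. By the same limma test 8.85% of all probes were called, so 1 of 9 is near the background. The test reads the 3 media as repeats of one clone difference, so a response to the medium adds to its error.

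The probes next in order were IDH3A, with a mean log2 ratio of -0.55 ± 0.113 (limma adjusted p = 0.056), and MDH1, with 0.23 ± 0.056 (limma adjusted p = 0.082). FH, CS, IDH1, SUCLG1, OGDH and MDH2 had limma adjusted p values of 0.128 to 0.784. Without adjustment 5 of the 9 genes had a limma p under 0.05, as did 12298 of all 57318 probes tested (21.5%). In the fit of probes well above background alone, 9137 of 27220 probes had such a p. For IDH1 the 95% interval of the mean ran from -0.80 to 0.02, the widest of the 9. For MDH2, with a mean of -0.03, it ran from -0.14 to 0.08, so a mean difference of the size seen in IDH2 lies outside it.

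These calls changed when any 1 array was left out, which also leaves fewer arrays to the test. Without the IGF1 array the mean ratios were -0.62 for IDH1 and -0.71 for IDH3A, and limma called both (adjusted p = 0.0097 and 0.0034). It did not call IDH2 there (limma adjusted p = 0.054), and 10.9% of all probes were called. IDH2 was also not called without the FBS-free array (limma adjusted p = 0.056) or without the OSI906 array (limma adjusted p = 0.148). In these fits 3.33% and 1.29% of all probes were called. The mean ratio of IDH2 was 0.39 without the FBS-free array, 0.32 without the IGF1 array and 0.27 without the OSI906 array.

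**Figure D2:**
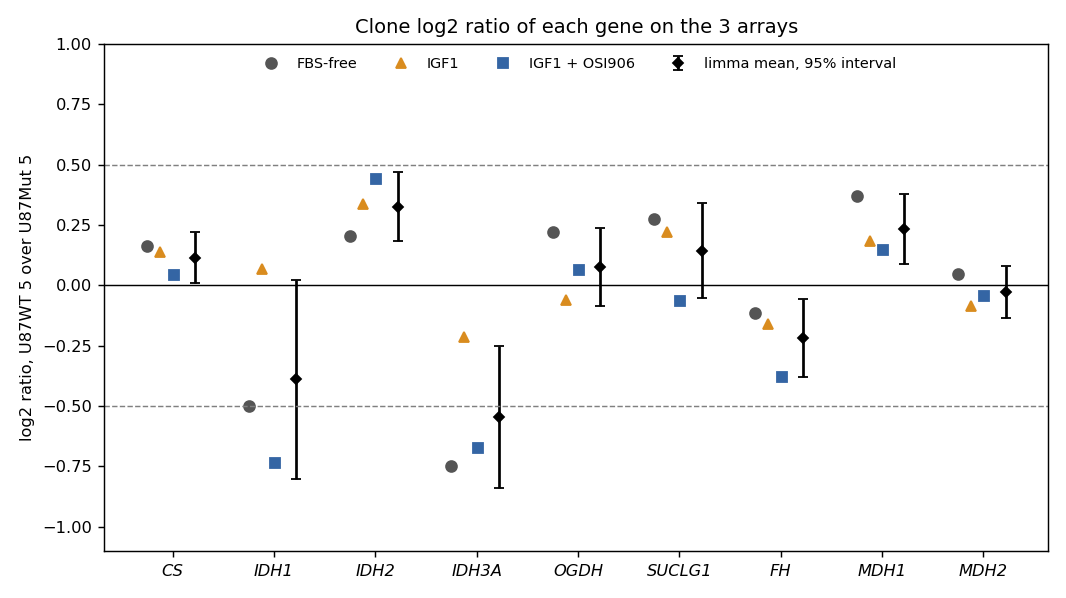
Log2 ratio of U87WT 5 over U87Mut 5 (vertical axis) of the brighter or single probe of each of the 9 genes (horizontal axis) on the FBS-free (circles), IGF1 (triangles) and IGF1 plus OSI906 array (squares), with the limma mean over the 3 arrays and its 95% interval (black diamonds) and dashed lines at 0.5 and -0.5. IDH3A lay past -0.5 in FBS-free medium and with OSI906 and IDH1 with OSI906, at -0.74, and the interval of IDH2, 0.18 to 0.47, lay above 0.

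Within U87WT, the IGF1 array minus the FBS-free array gave log2 differences of 0.67 for IDH1 and 0.70 for IDH3A, which is 1.59-fold and 1.62-fold. They ranked 174th and 148th from the top among 27223 probes well above background, where the middle 95% of probes ran from -0.47 to 0.46. The other 7 genes lay between -0.37, in IDH2, and 0.00, in SUCLG1. In U87Mut IDH1 and IDH3A differed by 0.10 and 0.16, and IDH2 by -0.51, which was the one difference there past the limit. The background was 2.02% of all probes and 3.97% of those well above background in U87WT, and 1.03% and 2.09% in U87Mut.

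OSI906 under IGF1 gave the opposite signs in the same 3 genes. In U87WT the OSI906 array minus the IGF1 array was -0.93 for IDH1, -0.77 for IDH3A and 0.98 for IDH2, or 1.90-fold lower, 1.71-fold lower and 1.97-fold higher. IDH1 was the 77th lowest and IDH2 the 152nd highest of 27391 probes well above background. In U87Mut IDH2 differed by 0.88, the 58th highest of these probes, while IDH1 and IDH3A differed by -0.12 and -0.32. The background was 3.2% of all probes and 6.52% of those well above background in U87WT, and 1.19% and 2.44% in U87Mut.

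These comparisons share the IGF1 array, so a high or low value there sets opposite signs in both. Set against FBS-free medium instead, which leaves the IGF1 array out, OSI906 with IGF1 gave -0.26 for IDH1 and -0.08 for IDH3A in U87WT, and for IDH2 0.60 in U87WT and 0.37 in U87Mut. IDH1 and IDH3A thus lay near their FBS-free levels in this comparison, and IDH2 lay above its own in both clones, past the limit in U87WT.

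The remaining genes differed little within a clone. CS, OGDH, SUCLG1, FH, MDH1 and MDH2 had log2 differences of -0.26 to 0.06 for IGF1 and of -0.18 to 0.20 for OSI906 over both clones, all within the middle 95% of probes well above background. This range is that of the brighter or single probe of each gene. The brighter and the dimmer probe of CS disagreed, at -0.19 and 0.15 for IGF1 in U87WT, and for OSI906 at 0.01 and -0.30 in U87WT and at 0.10 and -0.12 in U87Mut.

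**Figure D3:**
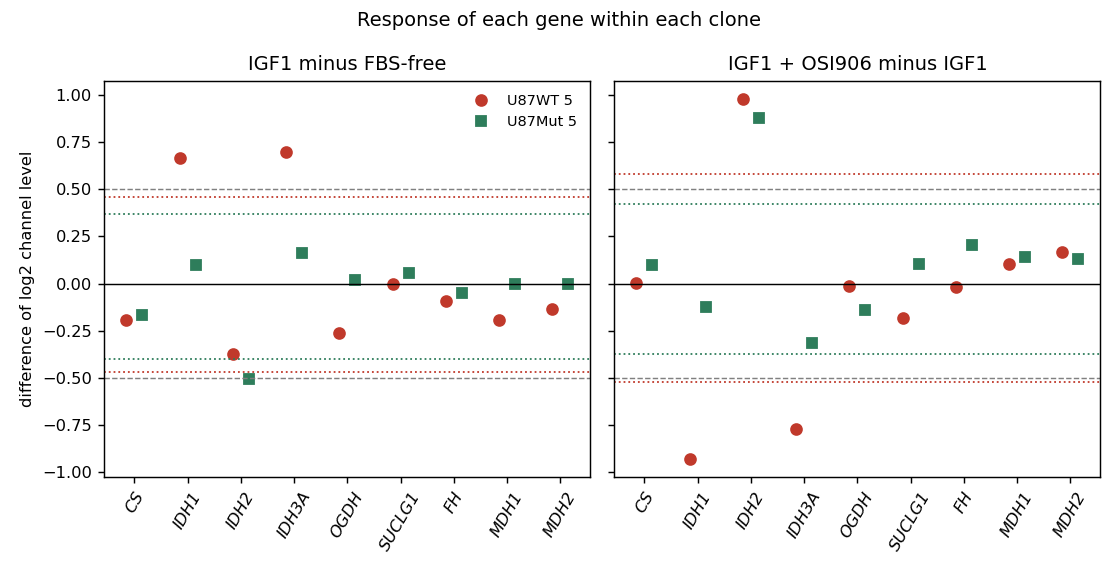
Difference of log2 channel level (vertical axis) for IGF1 minus FBS-free medium (left) and IGF1 plus OSI906 minus IGF1 (right) of each of the 9 genes (horizontal axis) in U87WT 5 (red circles) and U87Mut 5 (green squares), with grey dashed lines at 0.5 and -0.5 and dotted lines, in the color of the clone, around the middle 95% of probes well above background. IDH1 and IDH3A of U87WT lay above the lines with IGF1 and below them with OSI906, and IDH2 with OSI906 lay at 0.98 and 0.88.

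The difference of the response to IGF1, U87WT minus U87Mut, was 0.57 for IDH1 and 0.53 for IDH3A, 2 of the 9 genes, where 2.46% of all probes and 4.85% of those well above background were past 0.5. For the IGF1 array against the OSI906 array it was 0.80 for IDH1 and 0.46 for IDH3A, so 1 gene was past the limit, with 2.76% and 5.56% of probes. IDH1 was the 87th highest of 27391 probes in the latter. For IDH2 the same differences were 0.13 and -0.10. These are differences between single arrays, with no test, and the SD of such a difference over probes well above background was 0.202 for the FBS-free and OSI906 arrays.

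The processing of the IGF1 array moved some of these values. Some of its spots had a local red background of up to 66985, against 373 and 45 at most on the other arrays, and 572 were marked as not uniform. With those spots in the background model its fitted red background SD was 701 in place of 1.32, and the IGF1 ratios of MDH1 and SUCLG1 became 0.49 and -0.15. Those of IDH1 and IDH3A became 0.12 and -0.31. With only the median removed from each array, in place of a correction that follows brightness, the probes well above background had a median IGF1 ratio of 0.20, and 5 of the 9 genes were past 0.5, among them MDH1 at 0.89, CS at 0.76 and IDH1 at 0.68. Under this setting the IGF1 ratios of IDH3A and FH turned to 0.11 and 0.25. Over all settings tried the OSI906 difference of IDH2 ran from 0.84 to 1.16 in U87WT and from 0.66 to 1.09 in U87Mut, and that of IDH1 in U87WT from -1.13 to -0.86. The IGF1 difference of IDH1 in U87WT ran from 0.42 to 1.06.

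**Figure D4:**
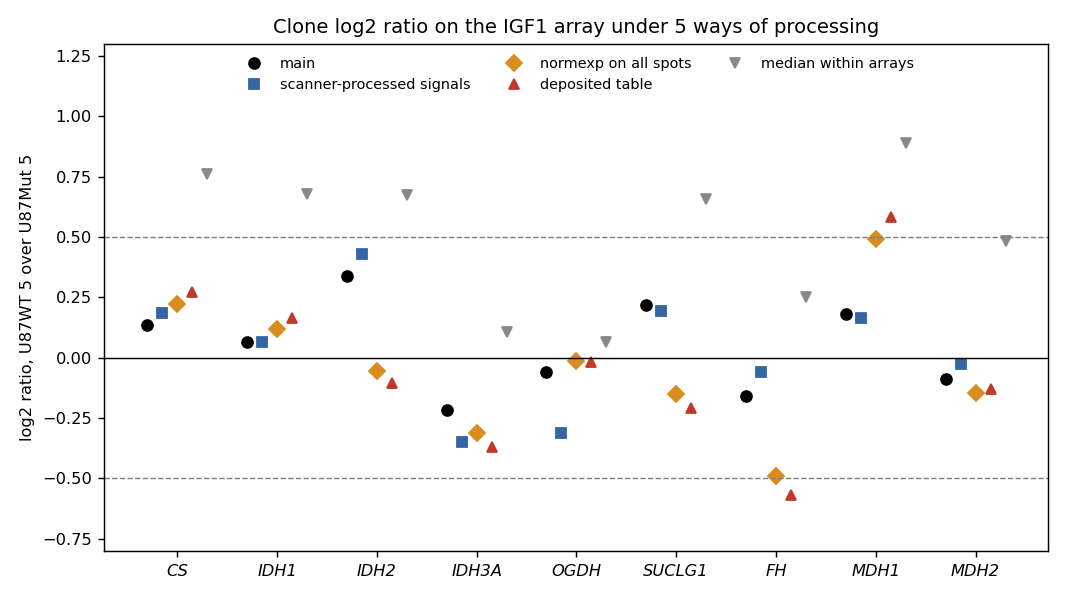
Log2 ratio of U87WT 5 over U87Mut 5 (vertical axis) on the IGF1 array for each of the 9 genes (horizontal axis) under 5 ways of processing, with dashed lines at 0.5 and -0.5. IDH2, SUCLG1, FH and MDH1 separated by the spots used in the background model, and median centering raised every gene.

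The partners of these enzymes were taken from a list of 12 other genes of the cycle, all with a probe. By limma 3 of the 12 were higher in U87WT and 0 lower, with 5 at an unadjusted p under 0.05, against 8.85% of all probes called and 21.5% at that p. SUCLG2, the GTP-forming partner of SUCLG1, had clone log2 ratios of 0.67, 0.41 and 0.56 (limma adjusted p = 0.011). SDHA, the flavoprotein of succinate dehydrogenase, had 0.49, 0.33 and 0.44 (limma adjusted p = 0.011). ACO1, the cytosolic aconitase that also binds iron-responsive RNA elements, had 0.24, 0.56 and 0.31 (limma adjusted p = 0.046). All 3 were higher in U87WT on every array. Whether these 3 calls hold under the other settings was not tested.

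SUCLA2, the ATP-forming partner of SUCLG1, was past the limit with IGF1 alone, at 0.02, 0.53 and -0.19. In U87Mut all 12 of these genes were lower on the IGF1 array than on the FBS-free array, with a median log2 difference of -0.24 against -0.01 for probes well above background, and 1 of them, SUCLA2, was past the limit. With the background fitted on all spots 7 of the 12 were lower, with a median of -0.06, and with quantile normalization of all channels 10. In U87WT 7 of the 12 were lower, with a median of -0.09. With the background fitted on all spots this U87WT count was 9, with a median of -0.23, which is below that of U87Mut. It was 2 with median centering within arrays and 11 without normalization between arrays. Which clone had the lower values with IGF1 thus depended on the processing. DLST, the core of the 2-oxoglutarate dehydrogenase complex and a partner of OGDH, is named after its values were seen. In U87WT it differed by 0.52 for IGF1 and by -0.87 for OSI906, and in U87Mut by -0.10 and -0.26.

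Of 14 genes that exchange malate, aspartate, citrate and glutamate with the cycle, all had a probe, and limma called 1 higher and 1 lower in U87WT, with 7 at an unadjusted p under 0.05, against the same 8.85% and 21.5% of all probes. GOT1, the cytosolic aminotransferase that works with MDH1 in the malate-aspartate shuttle, had clone log2 ratios of -0.76, -0.69 and -0.77 (limma adjusted p = 0.0029). SLC25A12, the mitochondrial aspartate-glutamate carrier, had 0.44, 0.35 and 0.27 (limma adjusted p = 0.016). The ratios of both genes kept one sign in all 3 media. Whether the calls of GOT1 and SLC25A12 hold under the other settings was not tested.

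ME2, the mitochondrial malic enzyme, which turns malate into pyruvate, had ratios of -0.76, -0.21 and -0.90, and its limma adjusted p was 0.072. Within U87WT it differed by 0.65 for IGF1 and by -1.01 for OSI906, and within U87Mut by 0.10 and -0.32. Past the limit on 1 or more arrays without a call were also pyruvate carboxylase PC at 0.16, 0.64 and 0.50, and the citrate cleaving ACLY at 0.20, 0.53 and 0.02. GLUD1, glutamate dehydrogenase, stood at 0.65, -0.16 and 0.16, and the citrate carrier SLC25A1 at -0.02, 0.45 and 0.53. The medians of the 14 genes were -0.02, -0.01 and 0.00 on the 3 arrays, close to those of all probes well above background.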

How the data were processed

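RNA of U87WT 5 (Cy5) and U87Mut 5 (Cy3) was hybridized to 3 Agilent arrays, 1 per condition, each with 62976 spots. The deposited intensity values are the median signals of each spot and its local background from Agilent Feature Extraction 12.0.3.1, not normalized; median signals were 30.5 to 35, and 0 spots were saturated. The authors also deposited log2 ratios, made with limma per their methods, with kinds of normalization not given in the sources used here; their medians were -0.007, -0.007 and -0.003, and they correlated positively with red over green on each array, so their direction is U87WT over U87Mut. Processed intensities from the scanner software were also deposited. Their log2 ratios and levels, with no further background correction or normalization, were used as an alternative.

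In R 4.3.3 with limma 3.58.1, background was corrected by normexp (offset 50) fitted without spots marked as not uniform. The 2075 control spots and outlier spots (5 to 572 not uniform and 85 to 92 others per array) were left out, arrays were normalized within by loess and between by Aquantile, and spots of a probe were averaged. RefSeq transcripts named 34892 of 36770 probes (GRCh38.p14). The brightest probe stood for a gene. The intercept-only limma fit ran over 57318 probes. In 58201 simulated probes it found 199 of 200 changed by 1 on the log2 scale, with 34 false calls beside these 199. The share of false calls was thus above the 5% aimed at. The simulated probes had the same true ratio on all 3 arrays, with no response to a medium, and the changed ones were bright. Recovery of a smaller difference, such as the mean log2 ratio of 0.33 for IDH2, was not tested. Precision is limited by the number of arrays. The text names all 9 genes, and genes of the fixed lists past 0.5 in clone log2 ratio on an array or called by limma. Of the listed genes, 1 is not reported here. Members and lists were chosen with earlier results of these data known. Alternatives covered background correction, normalization, choice of probes, the limit, the test and leaving out each array.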

Additional observations from a re-analysis of the deposited data

How the results depend on the processing

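Of the results recomputed under other settings, 673 kept their call or moved by less than the SD between arrays, which holds noise and response together. Of the others, 105 moved by more, 6 crossed the threshold upward and 8 downward, and none of the called values changed sign. Part of the 673 could not change. All 11 probes were well above background, so the choice of such probes left single-array values as they were. For the 7 genes with 1 probe, so did the mean of the probes. With the background fitted on all spots, 0 genes passed 0.5 in the U87Mut response to IGF1 (1 in the report) and 1 in the clone difference of that response (2 in the report), and limma called 0 genes. With quantile normalization of all channels the U87Mut response had 0 genes. With no background correction 2 genes passed in FBS-free medium, and 2 in the difference of IGF1 against OSI906, as they did with an offset of 20 there. Median centering within arrays gave 2 genes in FBS-free medium, 5 with IGF1, 2 in the U87Mut response, 8 in the difference of the response and 4 in that of IGF1 against OSI906, and limma called 0 genes. The deposited table gave 2 genes with IGF1, 1 in the difference of the response, 2 in that of IGF1 against OSI906 and 0 by limma. With a limit of 1 there were 0 genes in FBS-free medium and 0 with OSI906. Limma called 2 genes (1 in the report) with an offset of 20, without background correction, with the mean of the probes of a gene, and among probes well above background alone, and 0 with the signals processed by the scanner software or with the trended, robust fit. Leaving out 1 array at a time, it called 0 to 2. Over all probes limma called 5071 in the report's setting, 712 with the background fitted on all spots, 785 in the deposited table and 2634 with the trended, robust fit. Where it called 2 of the 9 genes, the calls outside them were many as well. Of 57318 probes it called 6309 with an offset of 20 and 5641 without background correction. With the mean of the probes of a gene it called 3600 of 24764, and among probes well above background 5442 of 27220. It called 1923 without the FBS-free array, 6284 without the IGF1 array and 737 without the OSI906 array. With median centering (5085 at an unadjusted p under 0.05) or the scanner's signals (10026) it called 0. Past 0.5 in the 9 comparisons by size were 589 to 2669 of all probes in the report's setting, 17261 to 23583 with the scanner's signals, 1180 to 11945 with median centering, 1143 to 4139 without background correction and 1015 to 3687 with an offset of 20, and 2688 to 4074 in the 5 that the deposited table gives. The cause of these changes was not tested.

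Without normalization between arrays, the IGF1 and OSI906 arrays lay below the FBS-free array by a median of 0.12 to 0.13 over all probes, and the IGF1 difference of IDH1 in U87WT was 0.42. No paired analysis was possible because each group has 1 array. Each enzyme value rests on 1 spot per probe and array.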
